A study of Mus musculus with 8 samples.

Results

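Actin, myosin and smooth muscle genes were followed as mouse embryonic fibroblasts, MEFs, were turned into induced pluripotent cells, iPSCs. The members were the rows of the gene table whose symbol is that of an actin, alpha-actinin, myosin heavy or light chain, myosin light chain kinase, myomesin, tropomyosin, calponin, troponin, transgelin or filamin. Caldesmon, desmin, vimentin, nestin, vinculin, smoothelin, leiomodin and the regulators Srf, Myocd, Mkl1 and Mkl2 were also members. By this rule on names there were 72 member rows, with 71 different symbols, of 17922 rows.

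The series holds 8 samples, of which the 4 long RNA libraries were used and the 4 small RNA libraries were not analysed here. All came from C57BL/6 mice, and the MEFs were from tetO-OSKM fetuses of embryonic day 13.5, in which doxycycline induces Pou5f1, Sox2, Klf4 and Myc. The groups were MEFs (day 0), MEFs at day 3 and at day 6 after induction with doxycycline, and fully reprogrammed iPSCs, with 1 library each. The induction medium held serum replacement, LIF and the GSK3 inhibitor CHIR99021, whereas no source used here gives the media of uninduced MEFs and of iPSCs, the number of fetuses pooled or the number of iPSC lines. MEFs are a mixed primary culture, and in bulk RNA fewer cells of a type and less RNA per cell cannot be told apart.

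Values are FPKM, fragments scaled by gene length and by the size of the library, so levels of different genes can be set side by side on a scale per length. Where 4 values follow each other, they belong to MEFs, day 3, day 6 and iPSCs in that order. Differences are in log2(FPKM + 1), which understates those of weakly expressed genes. A row was compared when its higher value reached 1 FPKM, and a difference of 1 or more, that is 2-fold, counted as a call, with all others within the rule. With 1 library per stage there is no replicate error and no difference was tested. The fibroblast markers summed to 5836, 6353, 6283 and 74.4 FPKM, and the pluripotency markers to 1.30, 4.83, 11.1 and 1894 FPKM. At days 3 and 6 only Pou5f1 and Sox2, 2 of the factors that doxycycline induces, reached 1 FPKM among the pluripotency markers. The 2 genes of each list with the largest differences between iPSCs and MEFs were S100a4 with 923, 804, 608 and 0.815 FPKM, the collagen gene Col3a1 with 553, 491, 609 and 2.62 FPKM, Pou5f1 with 0.226, 3.03, 8.56 and 739.7 FPKM, and Dppa5a with 0.114, 0.123, 0.0379 and 344 FPKM. Of 10 fibroblast markers 10 reached 1 FPKM in each of the first 3 libraries, and of 8 pluripotency markers 8 did in iPSCs.

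Actin filaments are built in every cell from beta- and gamma-actin and are pulled by non-muscle myosin II. Smooth muscle cells, and fibroblasts under tension, add alpha-smooth muscle actin and proteins that stiffen or regulate the filament, while striated muscle packs its own actins, myosins, troponins and myomesins into sarcomeres. Many of these genes are targets of SRF, a transcription factor that binds the CArG box and is activated by MRTF cofactors when free actin monomer is scarce or, in smooth muscle, by myocardin.

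The members made up 5.38% of the summed FPKM in MEFs, and 5.08%, 4.28% and 1.08% in the later libraries. The summed FPKM of the smooth muscle members was 6758, 5552, 3252 and 309.9, with day 6 at 48.1% of MEFs. That of the non-muscle members was 11852, 11539, 10039.7 and 3104, with day 6 at 84.7% of MEFs. At least 1 FPKM in some library was reached by 54 members, among them 10 of 10 smooth muscle, 17 of 18 non-muscle, 4 of 4 tropomyosin, 17 of 33 sarcomeric, 3 of 3 intermediate filament and 3 of 4 regulator rows. The other 18 stayed under 1 FPKM everywhere, with a highest value of 0.879 FPKM in Tagln3.

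**Figure D1:**
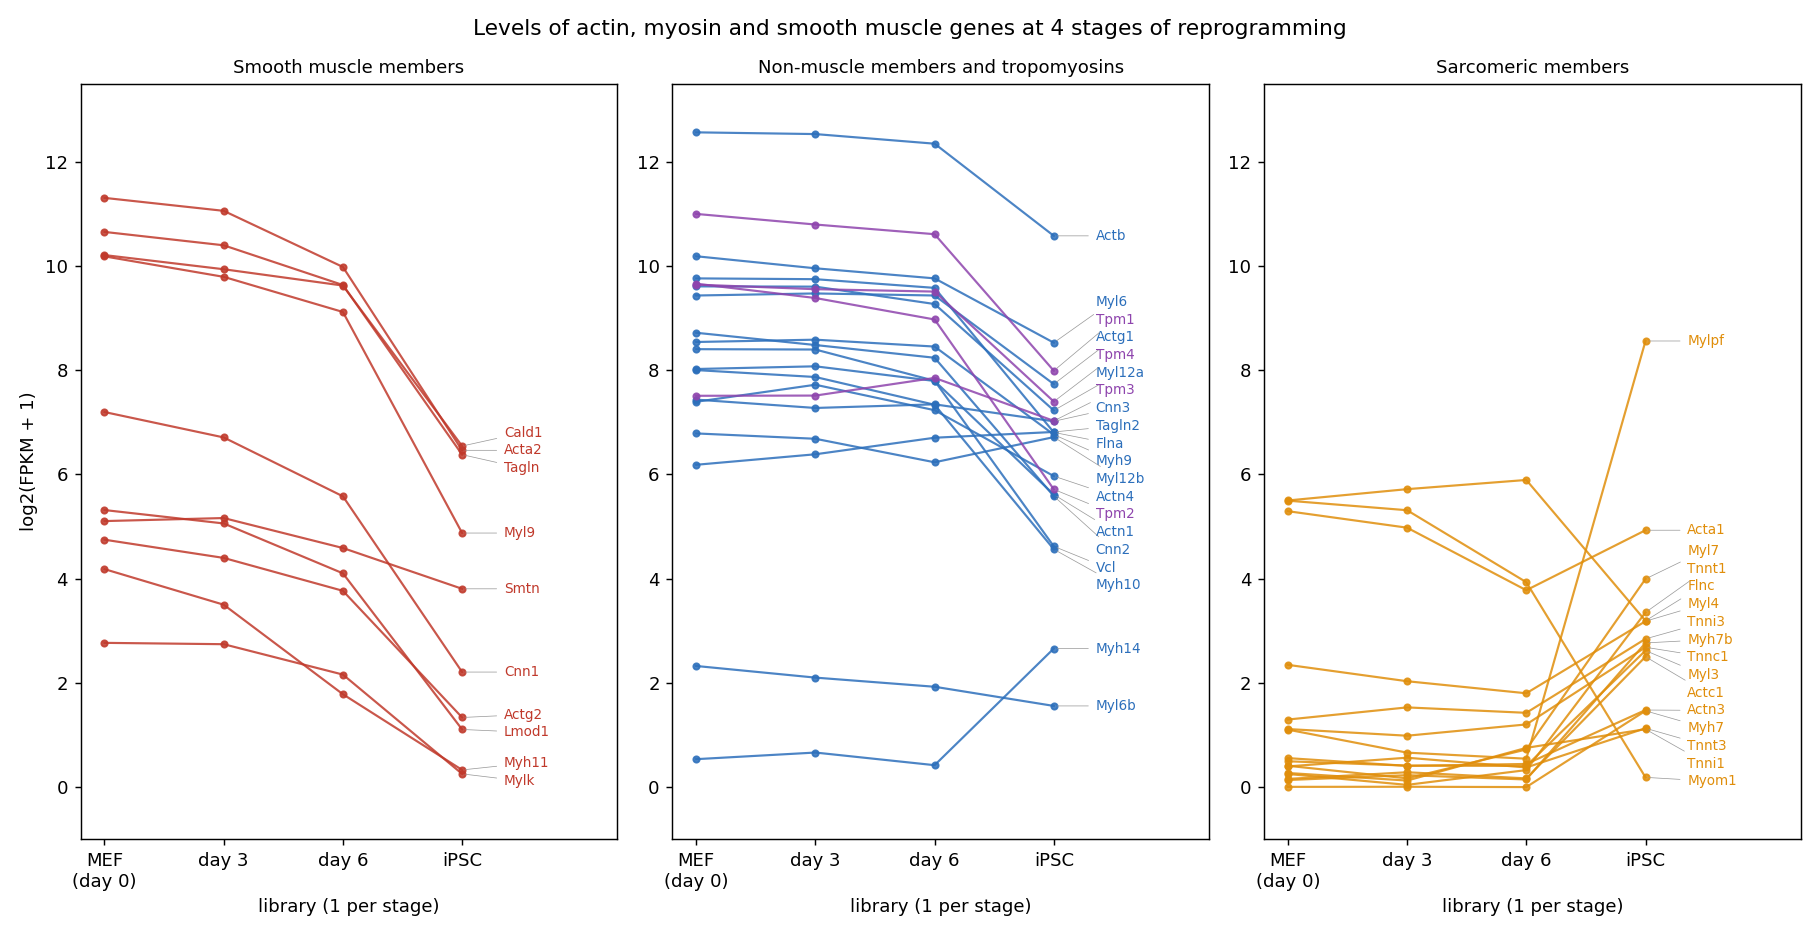
Levels of smooth muscle, non-muscle, tropomyosin and sarcomeric members that reached 1 FPKM, with 1 non-muscle member not drawn, as log2(FPKM + 1) on the vertical axis, in the 4 libraries on the horizontal axis. Each line is 1 gene, with tropomyosins in purple in the middle panel. Most of the decline of the non-muscle genes lies between day 6 and iPSCs. The smooth muscle class also had a lower median difference there (-3.04) than between MEFs and day 6 (-1.04), while Myh11 fell more before day 6. Mylpf stands at 377 FPKM in iPSCs.

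At day 3 no member was called against MEFs. Of 42 members compared 0 were higher and 0 were lower, beside 0.17% of all rows higher and 0.0511% lower. The median difference was -0.12 over the members and -0.02 over all 11740 rows compared. In the smooth muscle class it was -0.26, where 9 of 10 had a difference under 0 and Myh11 the lowest at -0.68. Of the 11740 rows compared 6318 had a difference under 0. The non-muscle class had a median of -0.01, with 10 members below and 6 above MEFs.

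At day 6, 6 of 10 smooth muscle genes and 2 sarcomeric genes were lower than in MEFs. Of 43 members compared with MEFs 8 were lower and 0 higher, where 0.584% of all rows were lower and 0.77% higher. These 8 were Acta2, Tagln, Myl9, Cnn1, Lmod1 and Myh11 of the smooth muscle class and Acta1 and Myom1 of the sarcomeric class. They made up 11.6% of the 69 rows called lower and 18.6% of the members compared. The median of the smooth muscle class was -1.04, with 10 of 10 below MEFs, that of the non-muscle class -0.22, that of the tropomyosins -0.26 and that of all rows -0.02. Of all 11816 rows compared 6306 were below MEFs. Against day 3, 5 of 42 members were lower (Acta1, Acta2, Cnn1, Myh11 and Myom1) and 0 higher, beside 0.398% and 0.457% of all rows. Comparisons with MEFs share the MEF library, and those of day 6 and iPSCs with day 3 or day 6 share that library too.

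Myh11 (ENSMUSG00000018830), the smooth muscle myosin heavy chain and a late marker of differentiated smooth muscle, was at 17.2, 10.3, 2.44 and 0.256 FPKM. Its difference of -2.40 between day 6 and MEFs was the lowest of all 11816 rows compared. Acta2 (ENSMUSG00000035783), alpha-smooth muscle actin, was at 2534, 2132, 1009.9 and 87.2 FPKM. By level it ranked 10, 12, 39 and 781 among all rows. Each library was thus below the one before for both genes.

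Cnn1 (ENSMUSG00000001349) encodes calponin, which binds actin and damps myosin activity. Its levels were 146, 104, 46.8 and 3.62 FPKM, a difference from MEFs of -0.49 at day 3, -1.62 at day 6 and -4.99 in iPSCs. Tagln (transgelin, SM22), an actin-bundling protein, was at 1611, 1348, 794 and 82.3 FPKM. Its difference at day 6 was -1.02, just past the rule. Myl9, the regulatory light chain of smooth muscle and fibroblast myosin, was at 1163, 886, 554 and 28.3 FPKM and differed from MEFs by -5.31 in iPSCs. Lmod1, a leiomodin that starts smooth muscle actin filaments, was at 38.9, 32.3, 16.2 and 1.15 FPKM. All 6 genes called lower at day 6 in this class were also below MEFs at day 3.

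The other 4 smooth muscle members kept more of their level or were near the rule. Actg2, the enteric smooth muscle actin, was at 25.9, 20.1, 12.6 and 1.52 FPKM, with -0.98 at day 6, just short of it. Cald1, caldesmon, was at 1183, 980, 788 and 92.4 FPKM. Mylk, the kinase that switches on smooth muscle myosin, was at 5.81, 5.69, 3.47 and 0.192 FPKM. Smtn, smoothelin, was at 33.4, 34.8, 23.0 and 13.0 FPKM, and its 38.8% of the MEF level was the highest in iPSCs among the 9 smooth muscle members that had at least 10 FPKM in MEFs. Cald1 and Mylk also give products in non-muscle cells, which values per gene do not separate.

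**Figure D2:**
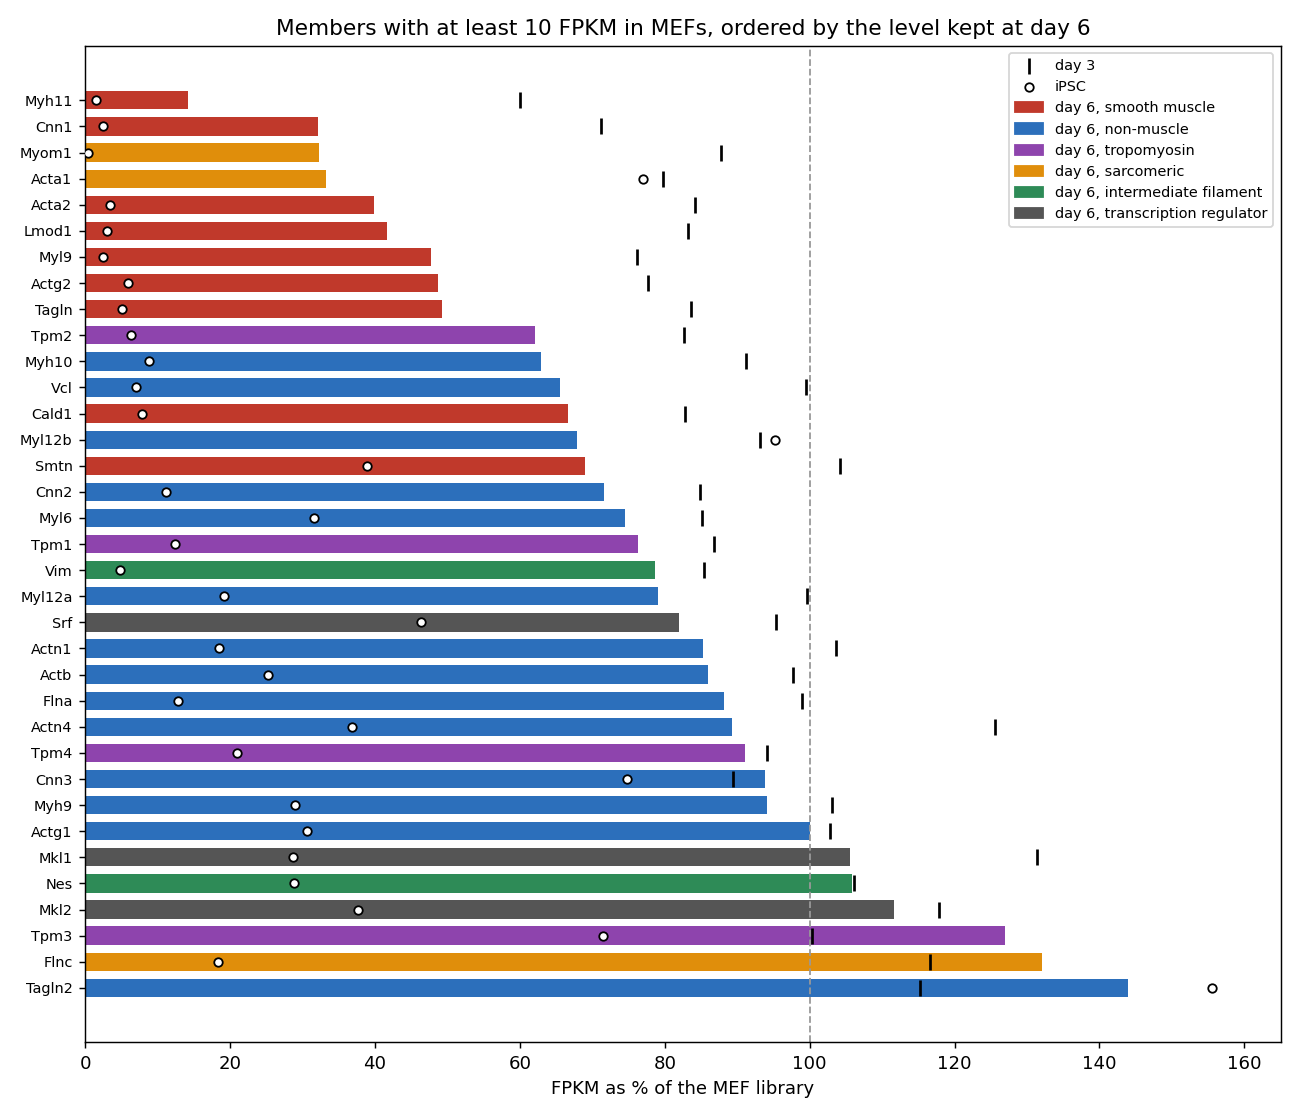
Level kept by members with at least 10 FPKM in MEFs, of which 1 non-muscle member is not drawn, as a percent of the MEF FPKM on the horizontal axis. Bars are day 6 and are coloured by class, black ticks are day 3 and open circles are iPSCs. Of 9 smooth muscle members 7 were under 50% at day 6, and none of 15 non-muscle members was.

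Among the 36 members with at least 10 FPKM in MEFs, the level kept at day 6 separated the classes in part. These members were chosen by their MEF level, the base of each percentage, which favours lower values later. No share over all rows was taken for this choice. Smooth muscle members kept between 14.2% (Myh11) and 69.0% (Smtn) of their MEF FPKM, with a median of 47.7%. Non-muscle members kept between 62.9% (Myh10) and 144% (Tagln2), with a median of 86.0%. The ranges overlap, since Cald1 (66.6%) and Smtn lie among Myh10, Vcl (65.6%) and Myl12b (67.8%). In iPSCs the median was 3.44% for smooth muscle and 29.0% for non-muscle members.

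SRF binds CArG boxes, so the stretch from the annotated start to 250 bases upstream was searched for this element in the promoter windows of RefSeq (GRCm38.p6). The element is its own reverse complement in form, so a search of 1 strand covers both strands. Of the 71 symbols 60 had a window, and 11 did not, among them Actb, Actg2, Actn3, Myh11, Mylk2, Myocd, Myom2, Tagln, Tnni2 and Tnnt3. A CArG box stood in 12 of the 60 (20%), against 1.62% of all 27025 genes with a window. The 12 were Acta1, Actc1, Actg1, Cnn2, Myh4, Myl3, Myl6, Myl7, Myl9, Myom1, Srf and Vcl, spread over the smooth muscle (1 of 7), non-muscle (4 of 16), sarcomeric (6 of 27) and regulator (1 of 3) classes. When 1 C or G was allowed in the A and T core (a CArG-like element, which by construction is no CArG box), 18 of 60 (30%) held either form, against 9.78% of all genes. The 6 added genes were Acta2, Flnc, Mkl1, Myl12a, Mylpf and Tpm3. A match is a description of the sequence and not evidence of binding.

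The windows below are those of actins and of Myl9, the smooth muscle and actin members with a match, and of Myom1 and Srf, which were chosen after their values were seen. They are written 5′ to 3′ on the strand of the gene, with CArG and CArG-like elements in capitals.
Acta2, chr19:34255374-34255487, minus strand: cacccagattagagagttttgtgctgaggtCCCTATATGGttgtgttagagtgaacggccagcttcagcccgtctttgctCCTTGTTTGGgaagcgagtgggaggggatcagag
Myl9, chr2:156775273-156775404, plus strand: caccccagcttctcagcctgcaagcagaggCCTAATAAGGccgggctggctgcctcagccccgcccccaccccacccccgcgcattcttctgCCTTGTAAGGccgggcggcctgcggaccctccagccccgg
Acta1, chr8:123894809-123895010, minus strand: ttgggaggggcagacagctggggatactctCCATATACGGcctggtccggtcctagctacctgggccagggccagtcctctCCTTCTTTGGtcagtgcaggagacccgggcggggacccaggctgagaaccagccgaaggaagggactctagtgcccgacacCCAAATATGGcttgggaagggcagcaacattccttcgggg
Actc1, chr2:114052883-114053080, minus strand: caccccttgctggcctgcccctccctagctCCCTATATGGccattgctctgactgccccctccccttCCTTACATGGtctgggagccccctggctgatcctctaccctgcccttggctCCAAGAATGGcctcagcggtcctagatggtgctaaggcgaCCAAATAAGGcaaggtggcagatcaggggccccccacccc
Actg1, chr11:120348546-120348615, minus strand: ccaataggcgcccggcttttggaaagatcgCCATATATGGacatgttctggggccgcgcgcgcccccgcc
Myom1, chr17:71019428-71019497, plus strand: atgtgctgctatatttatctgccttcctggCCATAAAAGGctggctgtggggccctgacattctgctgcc
Srf, chr17:46556185-46556274, minus strand: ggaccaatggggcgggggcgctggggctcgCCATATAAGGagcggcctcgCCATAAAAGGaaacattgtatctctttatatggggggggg

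Genes with these elements did not share a time course. Acta1, Myom1 and Myl9, with a CArG box 73, 99 and 161 bases upstream, were lower at day 6. So was Acta2, which carries CArG-like elements at 84 and 34 bases. Cnn2, Myl6 and Vcl, also with a box, were within the rule at day 6, with differences from MEFs of -0.48, -0.42 and -0.61. Actg1, with a box at 90 bases, was at 691, 709.8, 691 and 212 FPKM. Actc1, with a box at 47 bases and CArG-like elements at 175, 138 and 87, was at 0.115, 0.218, 0.122 and 4.66 FPKM. Srf carries boxes at 82 and 62 bases in its own window.

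The regulators themselves were not called at day 3 or day 6. Srf was at 19.5, 18.6, 15.9 and 9.01 FPKM, and its difference of -1.03 in iPSCs was just past the rule. Mkl1, which encodes the actin-sensing cofactor MRTF-A, was at 15.3, 20.1, 16.1 and 4.39 FPKM, and Mkl2 (MRTF-B) at 10.4, 12.2, 11.6 and 3.91. Myocd, myocardin, stayed under 1 FPKM, with 0.347, 0.112, 0.163 and 0.222 FPKM. All 3 regulators compared were lower in iPSCs than in MEFs, though Srf was within the rule after the libraries were rescaled to the same upper quartile or median, and Srf and Mkl2 were within it with a pseudocount of 5.

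**Figure D3:**
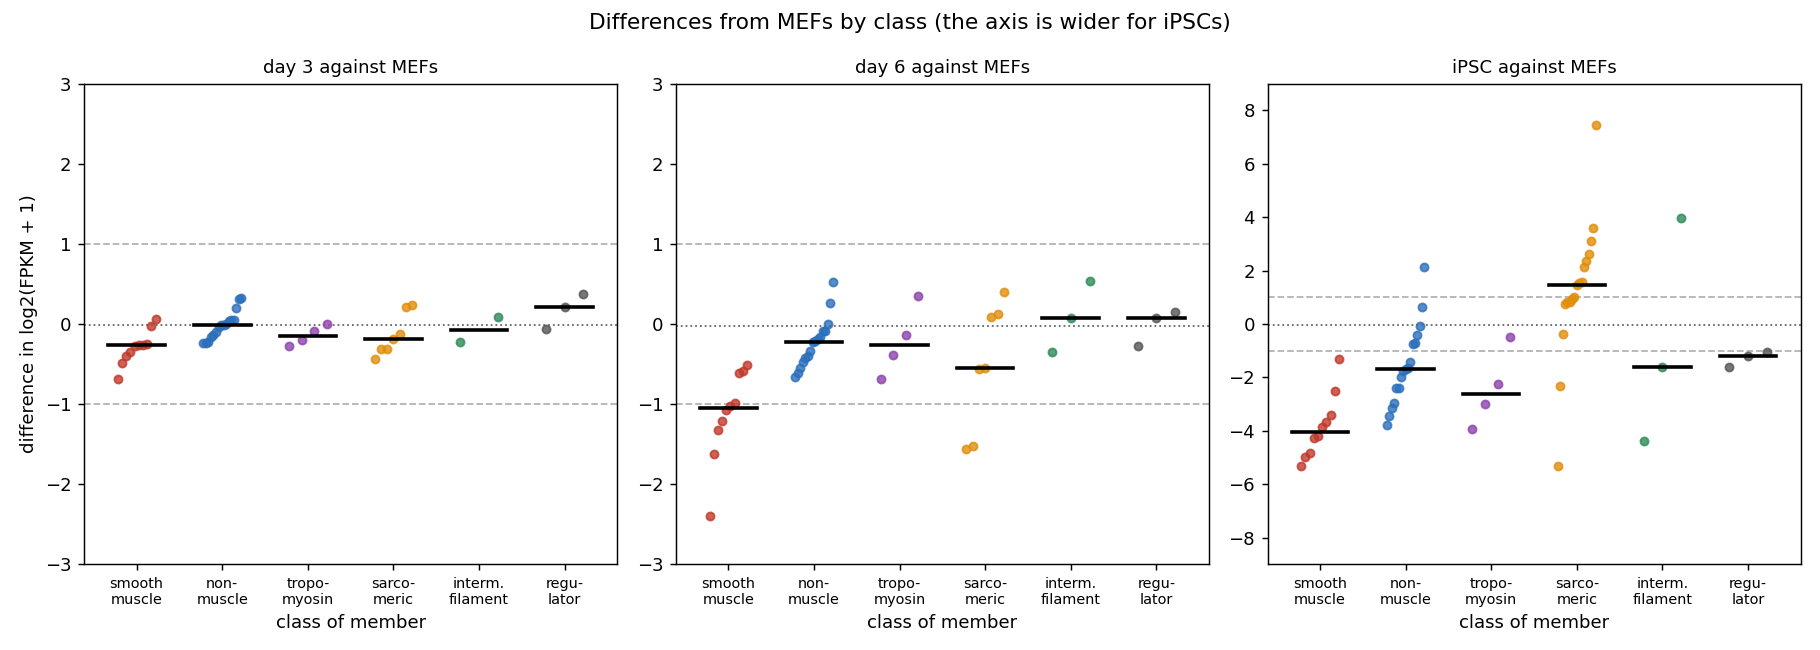
Differences from MEFs in log2(FPKM + 1) for the members compared, by class. Points are genes, black bars are class medians, the dotted line is the median of all rows and dashed lines mark a difference of 1. At day 6 the median of the smooth muscle class lies at -1.04, and in iPSCs the sarcomeric points run from -5.31 (Myom1) to 7.46 (Mylpf).

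In iPSCs most contractile members were lower than in MEFs. Of 54 compared 31 were lower and 12 higher, beside 25% of all rows lower and 21.1% higher. Against day 6, 29 were lower and 15 higher, beside 23.4% and 20.4% of all rows. Against MEFs, 10 of 10 smooth muscle members were lower (median -4.03), as were 11 of 17 non-muscle members (median -1.70) and 3 of 4 tropomyosins (median -2.63). Of 17 sarcomeric members compared 10 were higher and 2 lower, but only 7 of the 17 reached 1 FPKM in MEFs and the others were compared because of their level in a later library, mostly iPSCs. Of those 7, Mylpf, Tnni3 and Tnnc1 were higher and Myom1 and Flnc lower. The median over the 17 was 1.46, and over all 33 sarcomeric rows, with no filter on low values, it was 0.41. Rescaling the libraries to the same upper quartile moved the median over all rows from -0.05 to 0.11. It gave 30 members lower and 13 higher, beside 22.1% and 24.8% of all rows.

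Actb was the most abundant member in every library, and both ubiquitous actins were lower in iPSCs. Actb, beta-actin, was at 6059, 5922, 5210.2 and 1528 FPKM and ranked 4, 4, 3 and 26 among all rows. Actg1, gamma-actin, was at 691, 709.8, 691 and 212 FPKM. Of the summed FPKM of the 6 actins, Acta2 made up 27.1%, 24.2%, 14.6% and 4.68%, while Actb made up 64.8%, 67.2%, 75.1% and 82.0%. The sequences of the actins are close to each other and no source used here says how shared reads were assigned, so levels of the minor actins are uncertain.

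**Figure D4:**
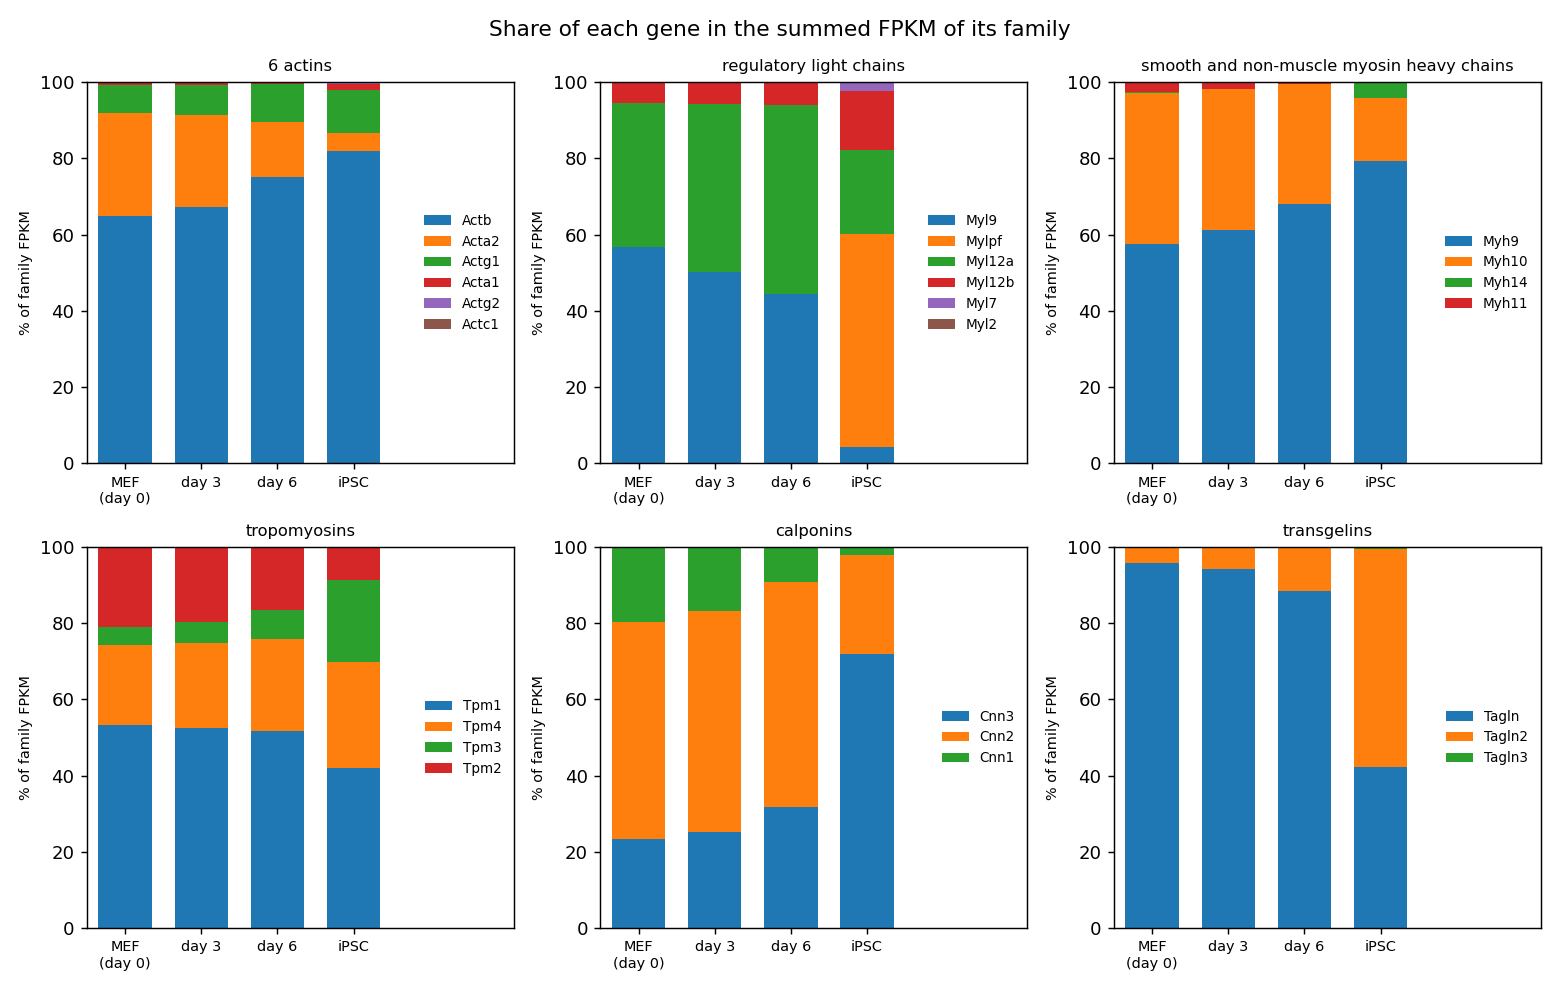
Share of each gene in the summed FPKM of its family, in percent on the vertical axis, in the 4 libraries. Families are the 6 actins, myosin regulatory light chains, smooth and non-muscle myosin heavy chains, tropomyosins, calponins and transgelins. Acta2 takes 27.1% of the actins in MEFs and 4.68% in iPSCs, and Mylpf takes 55.9% of the regulatory light chains in iPSCs.

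Non-muscle myosin heavy chains drive the tension of fibroblasts and the division of all cells. Myh9 (chain IIA) was at 372, 383, 349.7 and 108 FPKM, and Myh10 (IIB) at 255, 233, 161 and 22.6. Myh14 (IIC), a chain of epithelia, was at 0.450, 0.583, 0.338 and 5.32 FPKM. By the rule it was the only non-muscle member called higher in iPSCs than in MEFs. Myh9 made up 57.6% of the FPKM of these chains and Myh11 in MEFs and 79.2% in iPSCs, and Myh10 made up 39.6% and 16.7%.

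Light chains bind the neck of the myosin heads. Myl6, the essential light chain of smooth and non-muscle myosin, was at 1165, 992, 868 and 368 FPKM, and Myl6b at 4.01, 3.29, 2.80 and 1.94. Myl12a, a non-muscle regulatory chain, was at 779.8, 777, 617 and 149 FPKM. Its close paralog Myl12b was at 109, 102, 74.2 and 104 FPKM, within the rule in every comparison. Reads that these paralogs share may be split between them, so their separate values are uncertain. Of the 6 regulatory chains summed, Myl9 made up 56.6% in MEFs and 4.21% in iPSCs.

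Several crosslinkers of actin and its adhesion link vinculin were lower in iPSCs, and none was called at day 6 against MEFs. Flna, filamin A, a crosslinker of actin meshes, was at 867, 858, 764 and 111 FPKM. The alpha-actinins bundle stress fibres, and Actn1 was at 259, 269, 221 and 48.0 FPKM and Actn4 at 167, 210.1, 149 and 61.6. Vcl, vinculin, which links integrin adhesions to actin, was at 338, 336, 221 and 23.6 FPKM. It was at 65.6% of its MEF level at day 6, and its difference of -3.78 was the lowest of the non-muscle members in iPSCs.

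The paralogs of the smooth muscle calponin and transgelin went different ways. Cnn2 was at 420.3, 357, 301 and 46.9 FPKM, while Cnn3, the acidic calponin of non-muscle cells, was at 172, 154, 162 and 129 FPKM. The share of Cnn3 in the FPKM of the calponins was 23.3% in MEFs, 31.7% at day 6 and 71.8% in iPSCs, and that of Cnn1 was 19.7%, 9.19% and 2.02%. Tagln2 was at 71.8, 82.7, 103 and 112 FPKM, within the rule throughout. It made up 4.26% of the transgelins in MEFs and 57.3% in iPSCs, where Tagln was at 42.3%. Both small families thus held mainly another paralog in iPSCs than in MEFs.

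Tropomyosins wind along the filament and set which myosins may bind it. Each gene yields several isoforms, muscle and cytoplasmic, that values per gene add up. Tpm1 was at 2047, 1777, 1562 and 253 FPKM, Tpm2 at 808, 668, 502 and 51.5, and Tpm4 at 799, 751, 728 and 168. Tpm3 was at 181, 182, 230 and 129.5 FPKM and was the tropomyosin within the rule in iPSCs. None of the 4 was called at day 6 against MEFs.

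Intermediate filament genes differed in direction. Vim, vimentin, the filament of mesenchymal cells, was at 3537, 3021, 2781 and 171 FPKM. Nes, nestin, of neural and other progenitors, was at 16.9, 18.0, 17.9 and 4.87 FPKM. Des, desmin, the filament of muscle cells, was at 0.647, 0.951, 1.38 and 24.7 FPKM, so it was higher in iPSCs while the smooth muscle genes were lower.

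Sarcomeric members formed a small group expressed in MEFs and a larger group near the detection limit there. Myom1, myomesin, which crosslinks myosin filaments at the centre of the sarcomere, was at 44.1, 38.8, 14.3 and 0.138 FPKM. Its difference was -1.56 at day 6 and -5.31 in iPSCs, next to that of Myl9. Flnc, the muscle filamin, was at 44.3, 51.6, 58.5 and 8.13 FPKM. Acta1, skeletal muscle actin, was at 38.3, 30.5, 12.7 and 29.5 FPKM. It was therefore lower at day 6 than in MEFs (-1.52) and higher in iPSCs than at day 6 (1.15), with iPSCs within the rule of MEFs (-0.37).

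Mylpf, the regulatory light chain of fast skeletal muscle, was at 1.15, 0.581, 0.458 and 377 FPKM. Its difference of 7.46 ranked 7 from the top among the 12937 rows compared between iPSCs and MEFs. Mylpf made up 77.7% of the summed sarcomeric FPKM in iPSCs. Without it that sum was 138, 131, 95.3 and 108 FPKM. The Mylpf gene overlaps Sept1 (Septin1 in the reference), which was at 0.437, 0.383, 0.328 and 49.0 FPKM. No source used here says how reads of overlapping genes were assigned, and the part of this overlap in the result was not tested.

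The other sarcomeric genes higher in iPSCs were at low levels and of kinds known from cardiac or slow muscle. Myl7, the atrial regulatory light chain, was at 0.327, 0.123, 0.649 and 14.9 FPKM, and Tnnt1, slow skeletal troponin T, at 0.190, 0.0299, 0.253 and 9.21. Tnni3, cardiac troponin I, was at 1.46, 1.89, 1.69 and 6.18 FPKM. The slow myosin heavy chain Myh7b was at 0.0984, 0.172, 0.106 and 5.80 FPKM, Myh7, of heart and slow muscle, at 0.00283, 0.00414, listed at 0 and 1.76, and the light chain Myl3 at 0.409, 0.330, 0.325 and 5.14. Tnnc1, the troponin C of heart and slow muscle, stood on a pair of rows. The first (ENSMUSG00000021909) was at 1.16, 0.980, 1.30 and 5.42 FPKM and the other (ENSMUSG00000091898) at 0.0381, 0.384, 0 and 1.09. Actc1, cardiac actin, was at 0.115, 0.218, 0.122 and 4.66 FPKM. These 9 rows thus lay between 1.09 and 14.9 FPKM in iPSCs, far from the level of Mylpf.

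Further sarcomeric members reached 1 FPKM without a call between iPSCs and MEFs. Myl4, the atrial and embryonic essential light chain, was at 4.08, 3.09, 2.48 and 8.08 FPKM, and it overlaps Cdc27 in the reference. Actn3, the alpha-actinin of fast fibres, was at 0.470, 0.326, 0.360 and 1.79 FPKM, with a difference from MEFs of 0.92. Against day 6 both were higher in iPSCs, by 1.38 and 1.03. Tnnt3 was at 0.317, 0.478, 0.298 and 1.19 FPKM and Tnni1 at 0.206, 0.0905, 0.685 and 1.16. The sarcomeric members under 1 FPKM everywhere were Actn2, Myh1, Myh13, Myh15, Myh2, Myh3, Myh4, Myl2, Mylk2, Mylk3, Mylk4, Myom2, Myom3, Tnnc2, Tnni2 and Tnnt2, with a highest value of 0.870 FPKM. Most chains of adult skeletal fibres were therefore near or at 0 in all 4 libraries.

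Markers of muscle and vessel wall cells were read beside these results. Of the 16 skeletal muscle markers measured 1 reached 1 FPKM before the iPSC stage, the caveolin gene Cav3 with 5.17, 5.27, 3.70 and 0 FPKM, listed at 0 in iPSCs. Myog, a defining factor of the lineage, was at 0.0209, 0.0156, 0 and 0.0909 FPKM, and Ryr1, the calcium channel of skeletal muscle, at 0.00505, 0.00585, 0.00902 and 1.77. Of 9 cardiac markers 1 reached 1 FPKM in MEFs and 4 in iPSCs. These were Gata4 with 0.00849, 0.116, 0.0127 and 8.74 FPKM, Hand1 with 0.114, 0, 0.0106 and 9.50, Nppb with 1.33, 2.31, 1.84 and 2.64, and Ryr2 with 0.00714, 0.0116, 0.00698 and 1.74. The 9 summed to 2.03 FPKM in MEFs and 23.9 in iPSCs, there mostly from Gata4 and Hand1. Nkx2-5, an early cardiac factor, was at 0, 0.0165, 0.0100 and 0.360 FPKM. Mybpc3 and Nppa also stayed under 1 FPKM. Tbx5, at 0.154, 0.248, 0.194 and 0.0802 FPKM, and Hand2, at 0.267, 0.230, 0.292 and 0.0691, were lowest in iPSCs. The part of such cells in the levels of the sarcomeric genes was not tested.

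Mural markers, of pericytes and vascular smooth muscle, summed to 289, 278, 193 and 64.7 FPKM. Of 9 compared at day 6 with MEFs 2 were lower and 0 higher, beside 0.584% and 0.77% of all rows. These were the adhesion gene Mcam with 35.7, 29.3, 9.98 and 43.8 FPKM and the actin-associated Synpo2 with 17.0, 16.3, 7.42 and 0.372. Itga8, an integrin of smooth muscle, was at 75.4, 65.2, 38.6 and 0.766 FPKM, while Pdgfrb was at 60.4, 64.0, 49.8 and 2.02, Cspg4 at 25.5, 37.6, 29.0 and 0.0980 and Rgs5 at 17.4, 12.4, 15.3 and 0.0297. Hspb6 was at 42.7, 35.7, 24.6 and 3.25 FPKM and Npnt at 11.9, 15.2, 15.2 and 2.13. Notch3, at 1.27, 1.34, 1.77 and 11.1 FPKM, was called higher in iPSCs than in MEFs. Of the 9 compared, 6 were below MEFs at day 6 and 3 above, namely Cspg4, Npnt and Notch3. Kcnmb1, Casq2, Kcnj8, Abcc9 and Pln stayed under 1 FPKM. The fibroblast markers gave no lower call at day 6. The part of a change in cell mixture in the smooth muscle results was not tested.

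Single genes of the other lists marked the cells that can accompany fibroblasts. The macrophage markers summed to 71.6, 51.1, 56.4 and 51.2 FPKM, with Lyz2 at 52.9, 36.2, 40.6 and 0.0298 and Laptm5 at 4.31, 2.98, 3.27 and 38.5. Among endothelial markers, Pecam1 was at 0.0398, 0.0171, 0.0215 and 26.2 FPKM and the receptor gene Tek at 0.262, 1.22, 2.06 and 2.45. The neuronal tubulin Tubb3 was at 5.62, 9.91, 19.1 and 9.82 FPKM. Among all the lists, the genes called higher at day 6 against MEFs were Tek, Tubb3, Pou5f1, Sox2 with 0.411, 1.19, 2.03 and 88.7 FPKM, and the proteoglycan Dcn with 1.84, 4.76, 9.43 and 0.0634.

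Genes around the actin filament were compared through 3 further lists that hold no member. At day 6 against MEFs, where 0.584% of all rows were lower, 1 of 18 other SRF and MRTF targets was lower and 0 were higher, with a median of -0.46 and 16 of 18 below. Of all 11816 rows compared 6306 were below. The called gene of this list was Fosb, an immediate early gene, with 7.17, 7.25, 2.99 and 0.480 FPKM. Of 28 focal adhesion and stress fibre genes 2 were lower, Synpo2 and the adhesion adaptor Lims2 with 48.0, 35.5, 21.3 and 1.47 FPKM, with a median of -0.17. The 40 compared genes of actin assembly and turnover had 0 calls and a median of -0.04.

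**Figure D5:**
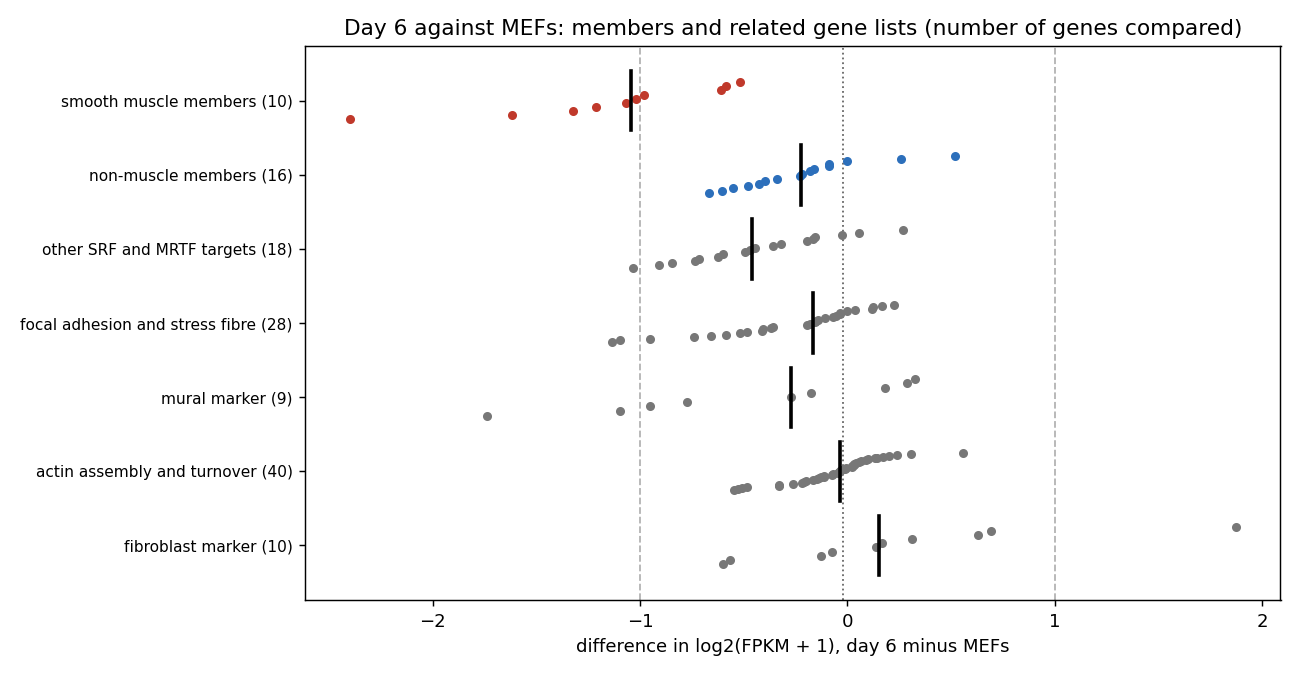
Differences between day 6 and MEFs in log2(FPKM + 1) on the horizontal axis for smooth muscle and non-muscle members and for 5 lists of other genes, with the number compared. Points are genes, black bars are medians, the dotted line is the median of all rows and dashed lines mark a difference of 1. The medians were -1.04 for the smooth muscle members and -0.04 for actin assembly and turnover.

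In iPSCs, where 25% of all rows were lower than in MEFs, these lists were lower in 17 of 18 SRF and MRTF targets (median -3.35), 21 of 28 adhesion genes (median -2.30) and 16 of 41 assembly genes (median -0.69). The growth-response factor Egr1 was at 72.4, 99.97, 87.4 and 0.347 FPKM and Egr2 at 28.8, 29.4, 22.9 and 0.125. Sorbs2, an adaptor of stress fibres, was at 113, 124, 75.0 and 0.392 FPKM. Gsn, gelsolin, which severs filaments, was at 667, 564, 530.3 and 46.0 FPKM, and Msn, moesin, which ties actin to the membrane, at 345, 388, 362 and 39.5. Assembly and turnover genes thus had a median nearer 0 than the smooth muscle members, a difference that was not tested.

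Some members overlap other genes in the reference annotation. Tagln overlaps Pcsk7, which was at 11.1, 10.5, 10.9 and 2.66 FPKM, and Tpm2 overlaps Car9, at 1.99, 2.84, 1.67 and 2.90. Myh7b overlaps Trpc4ap, at 38.6, 39.5, 35.3 and 21.1 FPKM, so its low values in the first 3 libraries lie beside a more strongly expressed gene. Vcl overlaps Ap3m1, at 25.2, 30.3, 25.7 and 24.5 FPKM.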

How the data were processed

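Gene expression was measured by RNA sequencing of 4 long RNA libraries, made from total RNA after removal of ribosomal RNA, per the labels' protocols. The authors deposited 1 table with FPKM values per gene and library. Per the submitters' processing notes, the tools were HISAT2 and Cufflinks and the build mm9, none with a version or a stated use. No source used here gives gene models, strand setting, filters or pooling.

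Sequencing depth is not stated, and columns summed to between 438130 and 486609 FPKM. Among rows under 0.06 FPKM in a library and in MEFs, the most frequent ratio, a rough estimate, put the fragments of the day 3 library at 0.638 of those of the MEF library, with day 6 at 1.04 and iPSCs at 1.01.

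Members were matched by symbol, and a table of reference gene names held 71 of the 72 identifiers. Differences were taken in log2(FPKM + 1), with a pseudocount of 1, over the whole table. The values of 1 member and 1 gene list are not reported here, though counts of members include that member. Members, classes and lists were chosen with earlier results of these data known. The rule for named genes took all members with at least 1 FPKM with their values, other members by class, list genes called up to day 6 and the 2 genes per list with the largest difference between iPSCs and MEFs. Myog, Nkx2-5, Pdgfrb, Rgs5 and the mural markers under 1 FPKM fall outside it and were chosen after their values were seen, as defining markers. Outside it too are Nppb, Ryr2, Mybpc3, Nppa, Tbx5, Hand2, Hspb6, Npnt and Notch3, given so that the cardiac and mural lists are complete. Scripts ran in Python 3.11.15 with pandas 2.3.3 and were tested on simulated data. The coordinates of promoter windows are on GRCm38.p6, and gene coordinates on mm9 are not used here.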

Additional observations from a re-analysis of the deposited data

How the results depend on the processing

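No call has a replicate check, since there is 1 library a stage, and none was left out in turn. No paired analysis was possible because no stage has replicates. Depth limits the sarcomeric genes most, many of which were under 1 FPKM until iPSCs.

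Of 90 counts of members under alternatives 81 stayed within 1.5 times the main count. Part of these could hardly move. With a pseudocount of 1 a call needs at least 1 FPKM, so taking away the filter on low values could change no count. Keeping only the highest row of a symbol could change Tnnc1 alone. The counts of members higher at days 3 and 6 were 0 in every setting. With 1.5-fold in place of 2-fold, 1 member was lower at day 3 against MEFs (Myh11), 10 at day 6 against day 3 and 14 at day 6 against MEFs. Of all rows 0.486%, 2.61% and 3.29% were lower in these comparisons. With 4-fold, 0 were lower at day 6 against day 3 and 1 at day 6 against MEFs (Myh11), beside 0.00846% and 0.0169% of all rows. By the 4-fold rule 19 were lower and 8 higher in iPSCs against day 6, beside 9.47% and 6.79% of all rows. With a pseudocount of 5, 5 members were higher in iPSCs against MEFs and 5 against day 6, as weak genes then count less. Of all rows 11.6% and 11.1% were then higher. Rescaling to the same upper quartile took Tagln out of the lower calls of day 6 against MEFs. Of 210 class medians 200 moved by under 1.5-fold and none past the rule changed sign. The 10 others were of 2 classes. For iPSCs against MEFs and against day 6, the sarcomeric median was 0.41 and 0.37 with no filter on low values, 2.13 and 2.04 with a pseudocount of 0.1, and 0.53 and 0.74 with one of 5, which also gave smooth muscle medians of -3.22 and -2.19. With a minimum of 5 FPKM the sarcomeric median at day 6 was -1.52 against MEFs and -1.20 against day 3.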

Other observations

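Some contractile genes and a mural marker were lowest at day 6 and not in iPSCs. Acta1 was at 38.3, 30.5, 12.7 and 29.5 FPKM in MEFs, days 3 and 6 and iPSCs, and the adhesion gene Mcam at 35.7, 29.3, 9.98 and 43.8. Among other members, Myl12b was at 109, 102, 74.2 and 104 FPKM and Myl4 at 4.08, 3.09, 2.48 and 8.08. These genes were picked after their values were seen, and the pattern was not tested.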
